A study of Mus musculus with 10 samples.

Results

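In the cell, ubiquitin is passed from an activating enzyme (E1) to a ubiquitin-conjugating enzyme (E2, named Ube2 in the mouse), and a ligase then directs it to the target protein. Ubiquitin-specific proteases (Usp) remove it again. The tag marks many proteins for the proteasome, and it also changes histones, membrane traffic and DNA repair; oocytes and early embryos use this route to remove maternal proteins. The genes described here were all rows of the deposited expression table whose name starts with Ube2 or with Usp and a number, 81 of 21437 rows, of which 35 were Ube2 and 46 Usp. GENCODE M21 annotates 76 of them as protein coding, 4 as pseudogenes and 1 as antisense. Usp6nl carries the name but is a Rab GTPase-activating protein, and Ube2v1 lacks the catalytic cysteine of an E2. Another 21 genes with these names in the annotation, among them Ube2n, Ube2h, Usp11 and Usp47, were not analysed here.

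RNA was sequenced in 5 groups of 2 libraries: MII oocytes, control 2-cell and 4-cell embryos, and 2-cell and 4-cell embryos labelled Ago2 kd, in which Argonaute 2, the slicing protein of RNA interference, was knocked down. The strain label is ICR and the tissue label embryo blastomeres in all groups; the genotype label is wild type in the 3 control groups and Ago2-kd in the other 2. The females were 7 weeks old and superovulated. For the embryos the protocol names F1 females, treated with PMSG and hCG and mated with F1 males, whereas the study's methods name ICR females for the oocytes, so in each comparison with oocytes the stage and the source of the females cannot be told apart. Embryos were taken 40 h (middle 2-cell) and 55 h (early 4-cell) after hCG. The knockdown was made by injecting zygotes with siRNAs against Ago2 together with an antibody against the protein, and a scrambled siRNA is named as the negative control. The number of embryos in a library is not given, and nothing says that the replicates came from separate collections, so the p-values measure only the spread between libraries. Ago2 itself was not analysed here, so the knockdown has no check in these values.

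Levels are FPKM, which corrects read numbers for transcript length and library size, so they can be compared between genes; the read depth behind them is unknown. Of the 12 oocyte markers (Zp3, Gdf9 and others), 11 reached 1 FPKM in MII oocytes, and their sum was 22900 to 25700 FPKM there, 8800 to 10100 in 2-cell control and 106 to 152 in 4-cell control. No cumulus or granulosa marker in the table (2 of 12) reached 1 FPKM in any library. Of the genes above 10 FPKM in the other replicate, replicate 1 of 4-cell Ago2 kd had 14.7% below 0.1 FPKM, against 1.63% to 5.85% in the other 9 libraries. Some, but not all, results of that group are therefore also given without it. The table runs through 18 alphabetical sections. In 15 of them at least 1 library is at 0 in every row, and whether such a 0 was measured cannot be seen from the table, so a gene is called here "listed at 0" rather than absent. In the last section 193 rows were above 0 and identical in both 2-cell Ago2 kd libraries, and Usp16, Usp29 and Usp34 were therefore counted as 1 sample in that group.

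At least 1 FPKM in at least 2 libraries was reached by 52 of the 81 genes (64.2%, against 40.7% of all rows), 21 Ube2 and 31 Usp, and these were tested. Of the other 29, 22 stayed below 1 FPKM in every library, among them Usp22 (0.117 to 0.311 FPKM), the protease of the SAGA coactivator, Usp4 and Usp30. The remaining 7 reached 1 FPKM in a single library, such as Usp8 with 40.6 FPKM in replicate 1 of 2-cell Ago2 kd and 0 elsewhere. Ube2n-ps1, a pseudogene at 7.15 to 22.8 FPKM, matched the coding sequence of Ube2n at all 456 bases, so its reads cannot be told apart from those of Ube2n, the E2 of K63-linked chains.

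The 4 Usp17l genes among the 81 lie on chromosome 7. The 3 of them that were tested rose to the 2-cell stage and fell after it, so the sequences at their starts are shown first. These genes belong to a multicopy family of inducible deubiquitinases. The annotation also names Usp17le and Usp17le-ps, which were not analysed here. On GRCm38 Usp17la lies at chr7:104857009-104862667 (plus strand), Usp17lb at chr7:104840257-104842603 (minus), Usp17lc at chr7:103415072-103419880 (plus) and Usp17ld at chr7:103249737-103252505 (minus). Their coding sequences were 91.2% to 98.4% identical in pairs, with the highest value for Usp17lc and Usp17ld, so the authors' counting may have split reads between them and the level of each single gene is uncertain. The RefSeq windows below run from 250 bases before to 50 bases after the annotated start (GRCm38.p6), 5′ to 3′, with the motif TATAAA in capitals.
Usp17la: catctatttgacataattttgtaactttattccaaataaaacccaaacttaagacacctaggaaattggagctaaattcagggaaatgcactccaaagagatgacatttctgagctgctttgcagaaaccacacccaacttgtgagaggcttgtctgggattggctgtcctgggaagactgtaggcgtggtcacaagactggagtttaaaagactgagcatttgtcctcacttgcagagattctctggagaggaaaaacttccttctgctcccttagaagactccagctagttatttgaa
Usp17lb: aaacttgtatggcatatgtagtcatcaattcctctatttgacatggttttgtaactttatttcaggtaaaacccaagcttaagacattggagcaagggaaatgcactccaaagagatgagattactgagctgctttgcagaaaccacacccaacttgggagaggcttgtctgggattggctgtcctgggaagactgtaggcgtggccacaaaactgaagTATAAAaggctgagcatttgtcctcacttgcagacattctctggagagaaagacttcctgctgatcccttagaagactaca
Usp17lc: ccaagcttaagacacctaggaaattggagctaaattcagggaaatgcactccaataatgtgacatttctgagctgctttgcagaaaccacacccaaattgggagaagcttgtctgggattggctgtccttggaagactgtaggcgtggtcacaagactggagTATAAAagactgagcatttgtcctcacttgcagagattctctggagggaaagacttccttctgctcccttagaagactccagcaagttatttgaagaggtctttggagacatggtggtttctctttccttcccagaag
Usp17ld: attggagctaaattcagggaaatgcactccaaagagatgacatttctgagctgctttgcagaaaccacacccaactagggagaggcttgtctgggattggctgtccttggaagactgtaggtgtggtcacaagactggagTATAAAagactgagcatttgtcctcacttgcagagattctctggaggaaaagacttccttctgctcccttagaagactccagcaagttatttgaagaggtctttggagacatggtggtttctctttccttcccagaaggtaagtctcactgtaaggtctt

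The 4 windows were 91.7% to 96.8% identical over the bases that aligned. TATAAA, searched on both strands, lay at -31 from the start in Usp17lb, at -88 in Usp17lc and at -110 in Usp17ld, and these letters were not in the Usp17la window. The bases after the motif were nearly the same in these windows, so the distances depend on the annotated starts. The Usp17lc window (chr7:103416446-103416745) lies inside the GENCODE gene given above rather than at its start. The motif was in 14.2% of 27025 mouse promoter windows of the same length and in 8 of the 61 windows found for the 81 genes. The GC box GGGCGG was in 40 of those 61 windows, against 35.9% of all windows. CCAAT was in 19 of 61, against 37.9%.

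In MII oocytes Usp17la, Usp17lb, Usp17lc and Usp17ld were all listed at 0. Usp17lb was at 54.5 and 81.9 FPKM in the 2-cell control libraries, Usp17la at 19.1 and 20.2, and Usp17lc at 12.2 and 10.1. All 3 rose from oocyte to 2-cell embryo (limma, adjusted p = 0.000106, 0.00568 and 0.000607), and no fold is given because the oocyte values are 0. Usp17ld, at 0.403 and 0.974 FPKM, was not tested. Usp17la and Usp17lc reached 1 FPKM in 2-cell libraries only. They thus passed the filter through the stage where they are high, so their rise and fall do not support a shared course. In 4-cell control embryos Usp17la and Usp17lc were again listed at 0, whereas Usp17lb stayed at 19.1 and 20.3 FPKM, 3.28-fold below the 2-cell level on the log2(FPKM + 1) scale. All 3 fell from the 2-cell to the 4-cell stage (limma, adjusted p = 0.0033, 0.00775 and 0.000326 for Usp17la, Usp17lb and Usp17lc), and these calls held in each fit that left out 1 library for Usp17la and Usp17lc. The 2-cell marker genes in the table (Zscan4 and others, 4 of 7) followed the same course, with sums of 89.6 to 115 FPKM in oocytes, 578 to 659 in 2-cell control and 2.47 to 7.21 in 4-cell control.

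In 2-cell Ago2 kd embryos Usp17la was at 0 and 4.27 FPKM and Usp17lb at 26.7 and 25.1, all below both control libraries. Usp17lc was at 22.1 and 21.6 FPKM, above both control libraries, and Usp17ld at 0.595 and 13.4. None of these differences passed adjustment. For Usp17la the log2 difference was -3.17 ± 0.69 (SE; limma, adjusted p = 0.204), for Usp17lb -1.33 ± 0.34 (adjusted p = 0.305) and for Usp17lc 0.91 ± 0.32 (adjusted p = 0.676). The difference of Usp17la was -4.37 without replicate 2 of 2-cell Ago2 kd (limma, adjusted p = 0.00837), a value that rests on 1 Ago2 kd library at 0, and -1.97 and not called without replicate 1. The sum of the 2-cell markers was 321 to 453 FPKM in these embryos, also below the control libraries. Its part in the Usp17l values was not tested. Among the 5 groups, each of the 3 tested Usp17l genes had its highest mean in a 2-cell group. For Usp17la and Usp17lc this followed from the filter, which only 2-cell libraries let them pass.

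**Figure D1:**
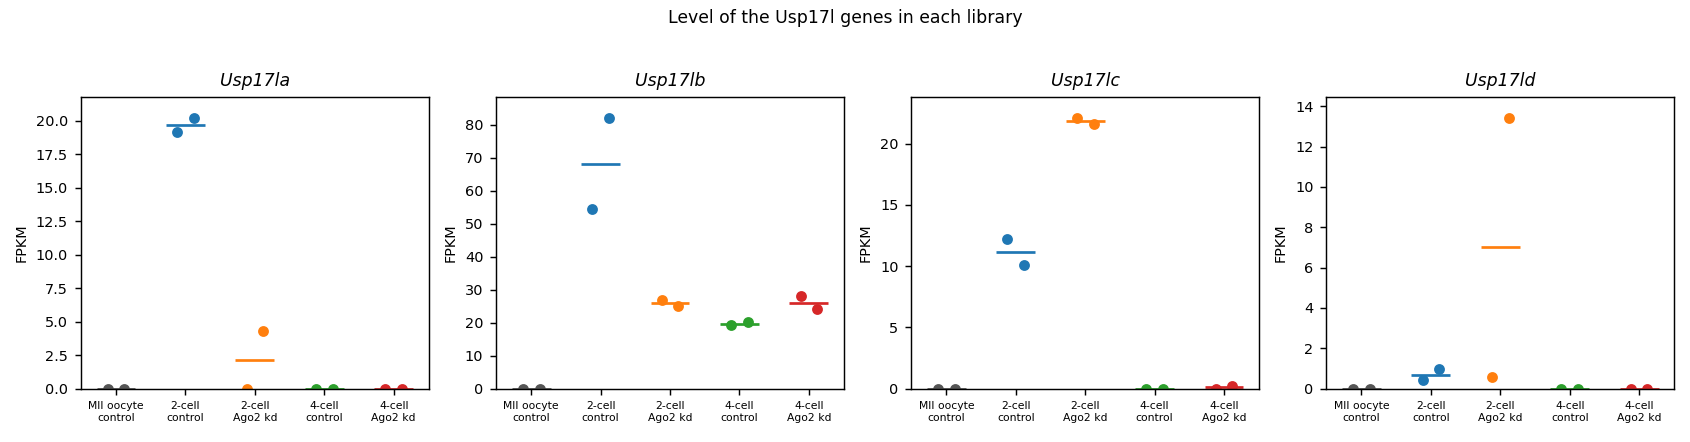
FPKM (linear axis from 0) of the 4 Usp17l genes in the 5 groups; points are libraries and horizontal lines group means. Usp17lb was at 54.5 and 81.9 FPKM in 2-cell control, 26.7 and 25.1 in 2-cell Ago2 kd and 0 in both oocyte libraries.

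In oocytes a few genes made up most of the RNA of each family. Usp34, a very large protease that acts in Wnt signalling, was at 576 and 678 FPKM and made 33.2% of the summed Usp FPKM, followed by Usp2 (16.8%), Usp1 (11.7%) and Usp16 (10.1%). Among the Ube2 genes Ube2g1 was highest, with 131 and 126 FPKM and 25.8% of the sum. In 4-cell control embryos the first place went to Usp1 (29.8% of Usp) and to Ube2c (46.9% of Ube2), the E2 that starts ubiquitin chains for the anaphase-promoting complex. The order among close neighbours, such as Ube2c (87.7 and 77.6 FPKM) and Ube2g2 (92.5 and 64.9) in oocytes, did not differ beyond the spread between replicates.

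From MII oocyte to 2-cell control, 9 of the 52 genes fell and 6 rose at an adjusted p below 0.05. Over all 8722 genes tested, 14.2% fell and 6.54% rose, so the share of the family that fell (17.3%) lay near the background. The median log2 change was -0.41 for the 52 genes and -0.06 for all genes tested. Because the summed FPKM was 450124 and 458874 in the oocyte libraries and 196312 and 203645 in 2-cell control, the split depended on the scaling: 6 of the 15 calls were rises as deposited (40%), 77.8% (7 rises, 2 falls) with libraries set to the same total, 54.5% (6 and 5) with the same median and 60.0% (6 and 4) after quantile normalization. Setting the total also moved the median change of all genes to 0.384. FPKM are relative to the reads of each library, so neither transcripts per embryo nor RNA per cell was measured in these bulk values. They cannot be told apart here, and a fall in FPKM is not shown to be a loss of transcripts.

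Usp2, which stabilises MDM2 and cyclin D1, was among the genes that fell most steadily. It lies at chr9:44067021-44095627 and was at 347 and 287 FPKM in oocytes, 48.2 and 44.7 in 2-cell control and 0.257 and 0 in 4-cell control, with no overlap between stages. The log2 changes were -2.74 ± 0.34 (limma, adjusted p = 0.00212) and -5.40 ± 0.34 (adjusted p = 9.1e-05), and the first had an adjusted p of 0.0521 with libraries set to the same total. Usp51, which removes ubiquitin from histone H2A, went from 3.72 and 2.26 FPKM in oocytes to a listed 0 in both control groups (limma, adjusted p = 0.00413). Elsewhere Usp51 reached 1 FPKM only in replicate 2 of 2-cell Ago2 kd (1.25 FPKM). It thus passed the filter only with the oocyte libraries, where it is high, so its fall was in part set by the filter. Usp53 went from 33.4 and 38.5 FPKM to 0.14 and 0.124 in 2-cell control, a log2 change of -5.02 ± 1.44 (limma, adjusted p = 0.0494). That call was lost in 8 of the 10 fits that left out 1 library (adjusted p up to 0.19), all but those without a 2-cell Ago2 kd library, and replicate 1 of 2-cell Ago2 kd was at 19 FPKM. The call of Usp53 was also lost under each change of scaling (limma, adjusted p = 0.0772 to 0.134), with a pseudocount of 0.1 and without the filter. Ube2r2, an E2 of cullin ligases, and Ube2d3, an E2 that works with many ligases, fell by 1.78 and 1.36 log2 units (adjusted p = 0.0114 and 0.0345). Neither kept its call with libraries set to the same total.

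Several genes were low at the 2-cell stage and high on both sides of it. Usp1, which removes ubiquitin from FANCD2 and PCNA in DNA repair, was at 222 and 219 FPKM in oocytes, 37 and 61.1 in 2-cell control and 225 and 304 in 4-cell control. Usp10, a partner of the stress granule protein G3BP, went from 75.3 and 70.8 FPKM to 11 and 13.3 and then to 98.9 and 113. Ube2g2, an E2 of endoplasmic reticulum associated degradation, went from 92.5 and 64.9 FPKM to 21.9 and 16.9 and then to 80.8 and 57.1. In all of them the 2-cell control libraries lay below all oocyte and 4-cell control libraries.

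The same held for Usp49, a histone H2B protease, with 7.76 and 8.42 FPKM in oocytes, 0.778 and 0 in 2-cell control and 6.34 and 6.21 in 4-cell control. The fall and the later rise share the 2-cell control libraries. For Usp1 the log2 changes were -2.19 ± 0.32 and 2.43 ± 0.32 (limma, adjusted p = 0.00411 and 0.00145), for Usp10 -2.50 ± 0.44 and 3.03 ± 0.44 (0.00793 and 0.0022), for Ube2g2 -1.96 ± 0.37 and 1.77 ± 0.37 (0.0109 and 0.00955) and for Usp49 -2.77 ± 0.44 and 2.45 ± 0.44 (0.00564 and 0.00541). The fall of Usp10 was not called without replicate 1 of the oocytes (adjusted p = 0.052) or under any of the 3 scalings (0.123 with the same total, 0.0572 with the same median, 0.0948 after quantile normalization). The fall of Usp1 was lost with the same total (0.0835) and after quantile normalization (0.0681), and the rise of Ube2g2 with the same median (0.0851). With the same total, 2 of the 9 falls to the 2-cell stage kept their call, those of Usp49 and Usp51. The fall of Ube2g2 was thus lost there too. Usp51 had passed the filter only with the oocyte libraries, as given above. The separate 2-cell Ago2 kd libraries were also below both oocyte libraries, with 31.5 and 38.5 FPKM for Usp1, 33.2 and 13.1 for Usp10, 33.4 and 23.6 for Ube2g2 and 3.47 and 1.77 for Usp49.

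Other genes rose at the 2-cell stage. Ube2a, 1 of the 2 mouse RAD6 homologs (Ube2b is the other), went from 9.81 and 10.3 FPKM in oocytes to 121 and 140 in 2-cell control, a log2 change of 3.57 ± 0.32 (limma, adjusted p = 0.000643), and to 32.9 and 22.2 in 4-cell control (-2.22 ± 0.32, adjusted p = 0.00229). The rise kept its call in each of the 10 fits that left out 1 library. Ube2b was at 9.97 and 0.15 FPKM in oocytes and 6.75 and 21.6 in 2-cell control, and did not pass (adjusted p = 0.406). Ube2w, which tags the amino terminus of proteins, went from 46.4 and 32.4 to 99.9 and 108 FPKM (1.40 ± 0.34, limma, adjusted p = 0.028) and then to 11.6 and 13.1 (-2.97 ± 0.34, adjusted p = 0.000851). The rise of Ube2w was lost without either oocyte library or either 2-cell control library (adjusted p up to 0.122). Ube2dnl1, an X-linked relative of the Ube2d genes, was listed at 0 in oocytes and was at 2.85 and 8.22 FPKM in 2-cell control (limma, adjusted p = 0.0345). This call was lost without either oocyte library, either 4-cell control library or replicate 2 of 2-cell control (adjusted p up to 0.163).

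**Figure D2:**
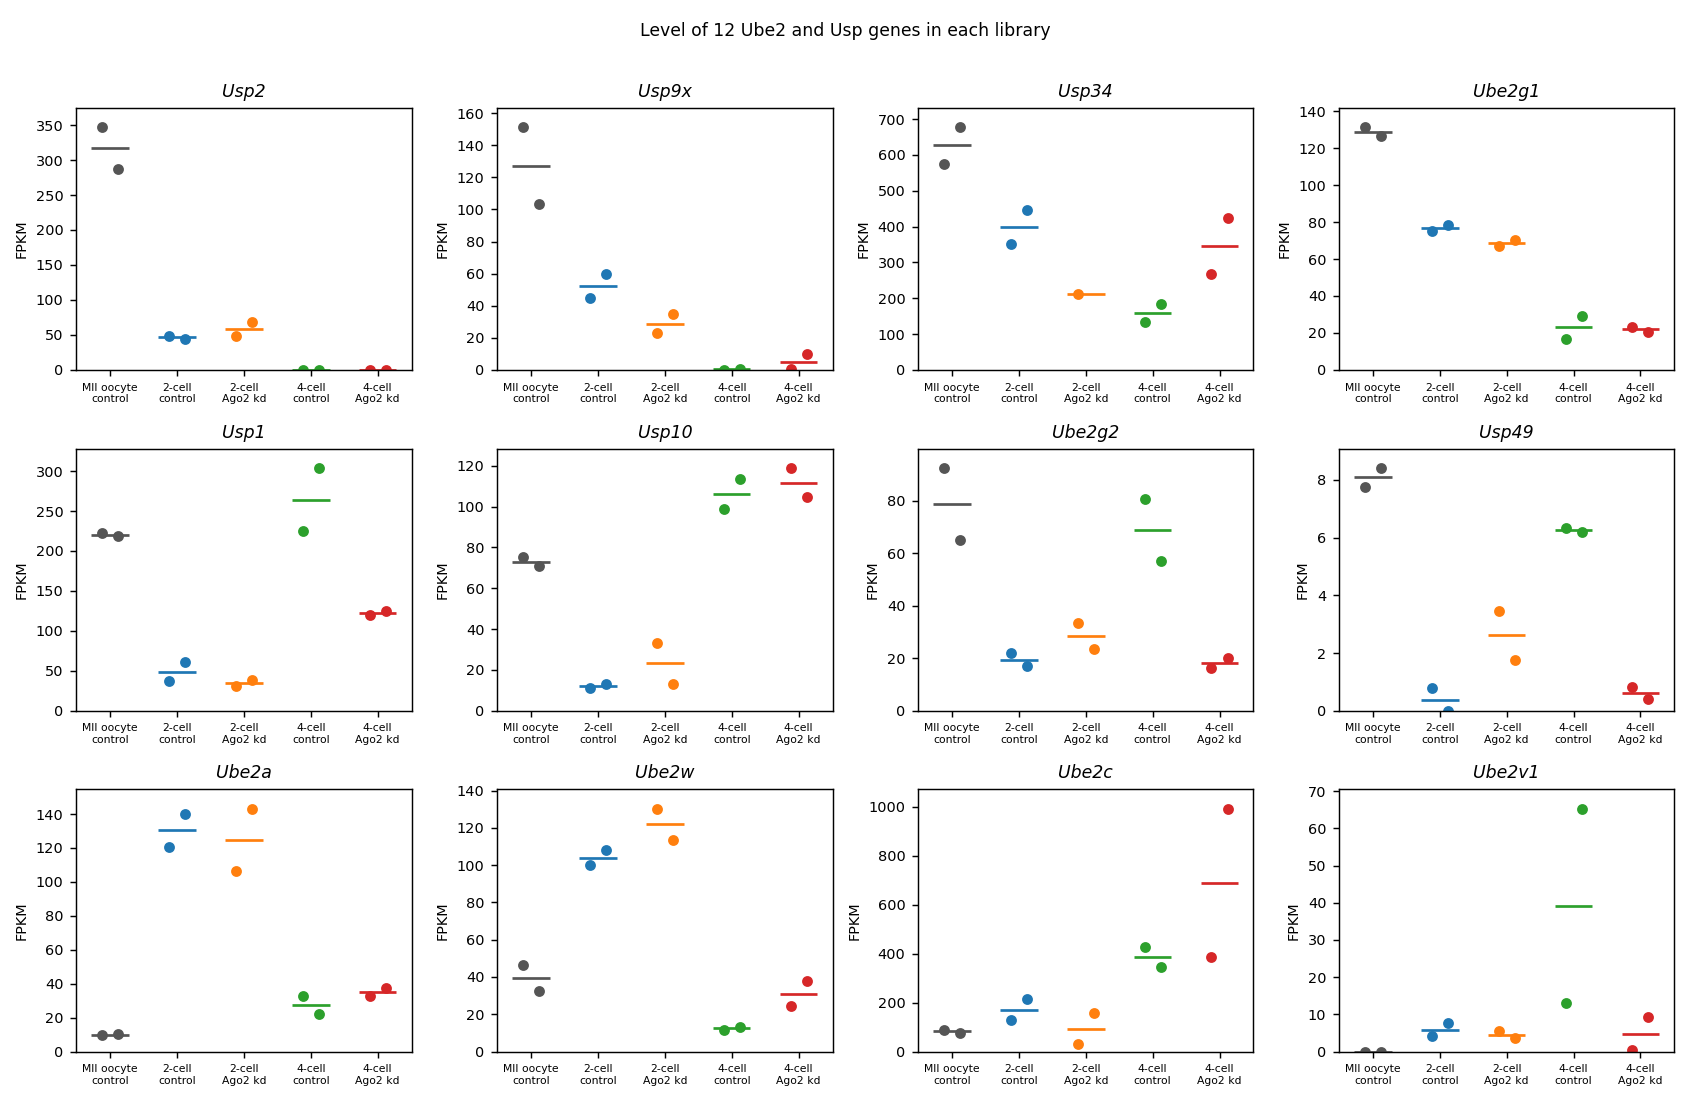
FPKM (linear axis from 0, own scale in each panel) of 12 genes in the 5 groups; points are libraries, horizontal lines group means, and Usp34 in 2-cell Ago2 kd is 1 value. Usp2 falls from 347 and 287 to under 1 FPKM in 4-cell control, Usp1 is lowest in the 2-cell groups, and Ube2a is highest in them.

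Between 2-cell and 4-cell control embryos 13 of the 52 genes fell (25.0%) and 6 rose (11.5%), where 17.4% of all genes tested fell and 21.1% rose. The median log2 change was 0.01 for the 52 genes and 0.24 for all genes. Among the calls of the family 31.6% were rises as deposited and 21.1% with libraries set to the same median, which brought the median change of all genes to 0. Of the 31 Usp genes 9 fell and 4 rose, and of the 21 Ube2 genes 4 fell and 2 rose. These families' difference in calls was not tested.

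Usp9x, a large X-linked protease with many substrates (chrX:13071498-13173328), was at 151 and 103 FPKM in oocytes, 44.8 and 59.5 in 2-cell control and 0.203 and 0.533 in 4-cell control. The log2 change from 2-cell to 4-cell was -5.28 ± 0.91 (limma, adjusted p = 0.00456) and all control stages were separated. Usp15, which acts on SMAD signalling, fell from 33.3 and 75.7 FPKM to 0 and 4.28 (-4.48 ± 0.93, adjusted p = 0.00936) and missed the threshold without replicate 2 of 2-cell control (adjusted p = 0.0553). Ube2k, an E2 that builds K48-linked chains, fell from 48.9 and 60.7 FPKM to 0.201 and 1.41 (-5.03 ± 1.64, adjusted p = 0.0485). Its replicates in oocytes were 0.994 and 81.2 FPKM, and the call was lost in 8 of the 10 fits that left out 1 library (adjusted p up to 0.18), all but those without an oocyte library. Ube2g1, an E2 of cullin ligases, went steadily from 131 and 126 FPKM to 75.1 and 78.2 and then to 16.7 and 29.3 (-1.75 ± 0.33 in the second step, adjusted p = 0.00632). Usp21, Usp46 and Usp34 also fell, with log2 changes of -2.88, -1.54 and -1.33 (adjusted p = 0.0351, 0.0106 and 0.021).

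The genes that rose in this step were, besides Usp1, Usp10, Ube2g2 and Usp49, Usp36 and Ube2j1. Usp36, a nucleolar protease, went from 0.753 and 1.86 FPKM to 16.3 and 39.3 (3.56 ± 1.11, limma, adjusted p = 0.0419), and lost the call without either 2-cell control, 2-cell Ago2 kd or 4-cell control library (adjusted p up to 0.179). The call was also lost under each change of scaling (limma, adjusted p = 0.0756 to 0.0966), with a pseudocount of 0.1, without the filter and with the replicate block. Ube2j1, an E2 of endoplasmic reticulum associated degradation, went from a listed 0 to 4.73 and 4.57 FPKM (adjusted p = 0.00229). It stands in a section of 823 rows in which both 2-cell control libraries are at 0 in every row, so the rise is uncertain. Ube2j1 also passed the filter only with the 4-cell control libraries, where it is high.

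Over the whole span from MII oocyte to 4-cell control, 12 of the 52 genes fell (23.1%) and 6 rose (11.5%), against 26.3% and 22.0% of all genes tested. The share of rises among the calls was 33.3% as deposited and 47.1% (8 rises, 9 falls) with libraries set to the same total, which moved the median change of all genes to 0.458. The largest falls were those of Usp2 (-8.14 ± 0.34 on the log2 scale, limma, adjusted p = 1.84e-05), Usp9x (-6.54 ± 0.91, adjusted p = 0.00116) and Usp28 (-6.18 ± 1.51, adjusted p = 0.0136). Usp28, a DNA damage protease, was at 67.1 and 75.8 FPKM in oocytes, 44.3 and 0 in 2-cell control and listed at 0 in all other libraries. Ube2d1 had the same form at 11.1 and 10.7 FPKM, then 11.1 and 0.139, then 0 (limma, adjusted p = 0.0189). Usp28 and Ube2d1 passed the filter only with the oocyte libraries, where they are high. The calls of Usp28 and Ube2d1 were lost without either oocyte or either 4-cell control library (adjusted p up to 0.0711 and 0.0852). Usp21, a histone H2A protease, fell from 43.2 and 59 FPKM to 4.8 and 0.369 (adjusted p = 0.00616), and Usp15 fell by 3.17 ± 0.93 log2 units (adjusted p = 0.0271), a call lost without either oocyte library or replicate 1 of 4-cell control (up to 0.128). The call of Usp15 was also lost with the same total and after quantile normalization (limma, adjusted p = 0.0859 and 0.0537), without the filter and with only the groups compared.

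Of the genes that rose over this span, Ube2v1, the inactive partner of Ube2n in K63-linked chains, was listed at 0 in oocytes and was at 4.19 and 7.6 FPKM in 2-cell control and 13 and 65.3 in 4-cell control (limma, adjusted p = 0.0079). Ube2a stayed higher than in oocytes by 1.34 ± 0.32 log2 units (adjusted p = 0.0126). The rises of Usp36 (3.47 ± 1.11, adjusted p = 0.0376) and Ube2dnl1 (adjusted p = 0.018) were lost in 7 and 3 of the 10 fits that left out 1 library: for Usp36 those without replicate 1 of the oocytes, a 2-cell control, a 2-cell Ago2 kd or a 4-cell control library (up to 0.209), and for Ube2dnl1 those without an oocyte library or replicate 1 of 4-cell control (up to 0.0913). The rise of Usp36 was also lost with the same median, after quantile normalization, without the filter, with the replicate block and with only the groups compared. Ube2c was at 87.7 and 77.6 FPKM in oocytes, 129 and 214 in 2-cell control and 427 and 347 in 4-cell control. The 4-cell control libraries were above all others of the control series, but the log2 change of 2.21 ± 0.78 missed the threshold (adjusted p = 0.0526).

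By role, the 3 tested of 4 Usp17l genes all rose to the 2-cell stage and all fell after it. Usp17la and Usp17lc passed the filter only through 2-cell libraries, so this count is no result about the family. The counts by role below stand beside 14.2% (fell) and 6.54% (rose) of all genes tested in the first step and 17.4% and 21.1% in the second. All 6 E2 genes of cullin ligases and endoplasmic reticulum associated degradation were tested; 2 fell to the 2-cell stage, and in the next step 2 rose (Ube2g2 and Ube2j1) and 2 fell. The table holds 9 proteases of histones and chromatin, of which 6 were tested; 2 fell to the 2-cell stage, and in the next step 1 rose (Usp49) and 1 fell (Usp21). Of 5 genes in the table that act in DNA repair or with the cofactor WDR48, 4 were tested. Of those 4, 1 fell to the 2-cell stage, and then 1 rose (Usp1) and 1 fell (Usp46). Both genes of the proteasome and free ubiquitin in the table were tested, and neither passed in these comparisons. With groups this small, the counts show nothing particular to a role.

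**Figure D3:**
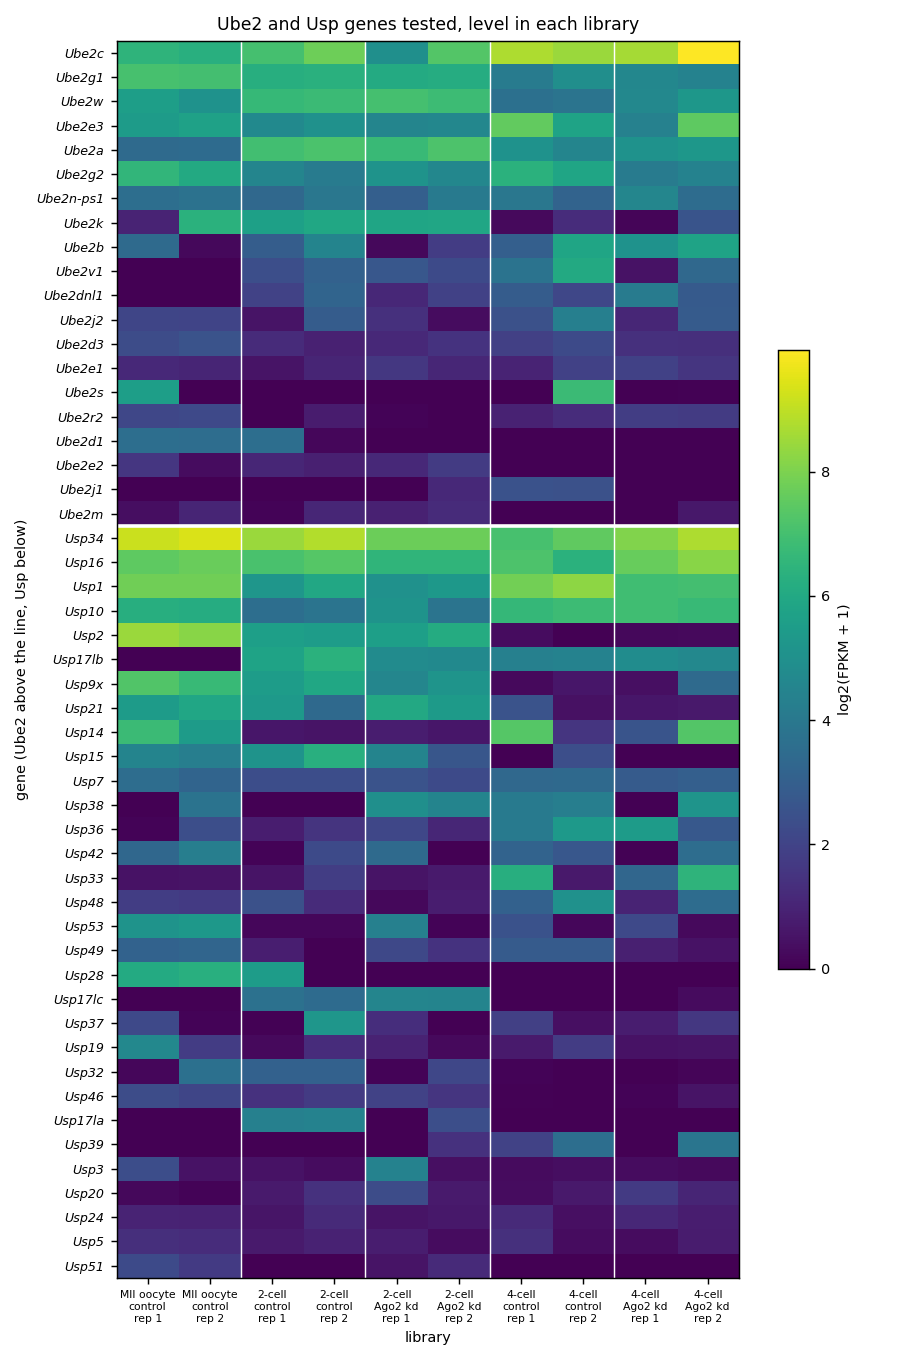
Heat map of log2(FPKM + 1) for 20 Ube2 (above the white line) and 31 Usp genes that were tested, ordered by mean level, in the 10 libraries; brighter cells are higher. Usp2 and Usp9x are bright in oocytes and dark at the 4-cell stage, and isolated bright cells in 1 replicate (Ube2s, Usp37, Usp33) mark replicates that do not match.

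In some genes the replicates of a group were far apart. Of the 81 genes, 18 had 2 replicates of a group more than 10-fold apart with at least 10 FPKM in 1 of them, pooled over the 5 groups. Of the family's genes at or above 10 FPKM in a replicate, the count ran from 3 of 23 in 2-cell control to 6 of 21 in 4-cell Ago2 kd. Among all genes at or above 10 FPKM, 11.4% (oocytes) to 25.5% (4-cell Ago2 kd) were that far apart. Usp14, a protease on the proteasome, was at 111 and 42.9 FPKM in oocytes, 0.515 and 0.457 in 2-cell control and 158 and 1.89 in 4-cell control, and its fall to the 2-cell stage did not pass (log2 change -5.56 ± 2.06, limma, adjusted p = 0.11). Ube2s, which extends chains for the anaphase-promoting complex, was at 47.4 and 0.0123 FPKM in oocytes and at 0.00609 and 110 in 4-cell control, and under 0.04 elsewhere. Usp33 was at 74.6 and 0.606 FPKM in 4-cell control. Usp14, Ube2s and Usp33 did not pass the test in any comparison. Ube2k, Usp53, Usp28 and Ube2d1 are also among the 18 genes, and each passed in 1 comparison, as given with the fits that lost the call.

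Several abundant or well-studied genes did not pass adjustment. Usp7 acts on MDM2 and p53. It was at 10.8 and 8.13 FPKM in oocytes, 4.16 and 4.18 in 2-cell control and 9.31 and 9.68 in 4-cell control, with changes of -1.01 ± 0.34 and 1.02 ± 0.34 that missed the threshold (limma, adjusted p = 0.0874 and 0.054). All 4 libraries of 2-cell embryos, Ago2 kd included, were below all oocyte and 4-cell libraries for Usp7. Usp16, a histone H2A protease, stayed between 80.6 and 204 FPKM in all control libraries. Ube2e3, the second most abundant E2 in 4-cell control, was at 190 and 53.5 FPKM there and 42.9 and 51.4 in oocytes (adjusted p = 0.402).

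Related genes did not always move alike. Usp36 rose from oocyte to 4-cell control by 3.47 log2 units, and the change of its relative Usp42 was -0.84 (8.89 and 18.1 to 8.01 and 5.55 FPKM). The change was -3.57 for Ube2d1 and -0.35 for Ube2d3, and -2.49 for Ube2g1 (limma, adjusted p = 0.000912) and -0.19 for Ube2g2. Usp33 changed by 2.95 and Usp20 by 0.36, neither past the threshold, with the Usp33 replicates 74.6 and 0.606 FPKM. These pairs were chosen for the size of their difference among 8 pairs with both genes tested, and the difference itself was not tested.

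**Figure D4:**
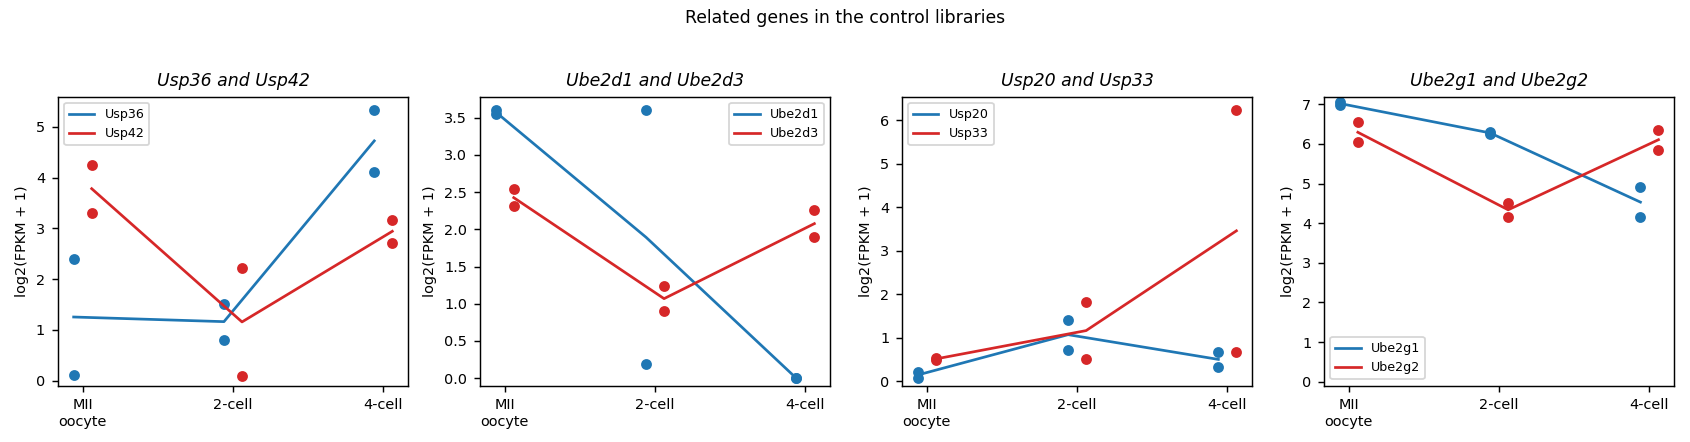
log2(FPKM + 1) of 4 pairs of related genes in MII oocyte, 2-cell and 4-cell control libraries; points are libraries and lines join group means. Ube2g1 falls by 2.49 over the series and Ube2g2 ends 0.19 below its oocyte level.

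Against the control embryos of the same stage, the Ago2 kd embryos showed few differences in these genes. At the 2-cell stage none of the 52 passed adjustment in limma, while 4 (higher) and 2 (lower) had p below 0.05 before adjustment. Over all genes tested, 0.321% were higher and 0.218% lower after adjustment, and 2.87% and 2.9% before it. The share of the family at the unadjusted threshold was 7.69% higher and 3.85% lower, and 5 of the 6 genes were Usp17la, Usp17lb and Usp17lc (above), Usp49 and Usp51. Usp49 was at 3.47 and 1.77 FPKM against 0.778 and 0 (1.40 ± 0.44, unadjusted p = 0.0155, adjusted p = 0.529), and Usp51 at 0.447 and 1.25 FPKM against a listed 0 (unadjusted p = 0.0215). The remaining gene, Usp38, was at 30.2 and 21.3 FPKM against 0 and 0 (unadjusted p = 0.0313, adjusted p = 0.726), but stands in a section of 1770 rows in which both 2-cell control libraries are at 0 in every row. Without replicate 2 of 2-cell control, Usp28 and Ube2d1 were lower (limma, adjusted p = 0.0109 and 0.0158), since replicate 1 alone had 44.3 and 11.1 FPKM against 0 in both Ago2 kd libraries.

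At the 4-cell stage 3 of the 52 genes were lower in Ago2 kd after adjustment (5.77%, against 2.76% of all genes tested) and none was higher (1.15% of all genes). At an unadjusted p below 0.05, 5 were lower (8.07% of all genes) and 3 higher (7.22%). Ube2g2 (chr10:77622275-77645993) was at 16.4 and 20.2 FPKM in Ago2 kd against 80.8 and 57.1 in control, a log2 difference of -1.84 ± 0.37 (limma, adjusted p = 0.0454). Usp49 (chr17:47630690-47686738) was at 0.821 and 0.409 FPKM against 6.34 and 6.21, a difference of -2.18 ± 0.44 (adjusted p = 0.0459). Ube2j1 (chr4:33031416-33052363) was listed at 0 in both Ago2 kd libraries against 4.73 and 4.57 FPKM (limma, adjusted p = 0.0128). Elsewhere Ube2j1 reached 1 FPKM only in replicate 2 of 2-cell Ago2 kd (1.23 FPKM). It thus passed the filter only with the 4-cell control libraries, where it is high, so its call was in part set by the filter. In all 3 both Ago2 kd libraries lay below both control libraries.

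For Ube2g2 and Usp49 the 4-cell Ago2 kd values lay near those of 2-cell control (21.9 and 16.9 FPKM, and 0.778 and 0). They lay below those of 2-cell Ago2 kd (33.4 and 23.6 FPKM, and 3.47 and 1.77). The calls of these genes were lost in each of the 10 fits that left out 1 library (adjusted p = 0.0573 to 0.118 and 0.0526 to 0.125; 0.1 and 0.0675 without replicate 1 of 4-cell Ago2 kd). Ube2j1 kept its call in those 10 fits (adjusted p = 0.00207 to 0.049; 0.046 without that library), and all 3 lost it when the fit held only the 2 groups compared (0.238, 0.383 and 0.236). With only the 2 groups in the fit, no gene of the 8722 tested was called, so that loss is not particular to these genes. All the fits kept the same filter, which Ube2j1 passed only with the 4-cell control libraries. Its kept calls are therefore no separate support. Among the 823 rows of the section that holds Ube2j1, 19.2% and 20.3% were above 0 in the 4-cell control libraries and 17.1% and 19.9% in the Ago2 kd libraries.

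Genes that passed only the unadjusted threshold at the 4-cell stage were Usp1, Ube2v1, Ube2w, Usp16 and Usp34. Usp1 was at 120 and 125 FPKM in Ago2 kd against 225 and 304 in control (-1.09 ± 0.32; limma, unadjusted p = 0.0114, adjusted p = 0.152). Ube2v1 was at 0.391 and 9.22 against 13 and 65.3 FPKM (-3.01 ± 1.06, adjusted p = 0.226), and the lower Ago2 kd value was that of replicate 1. Usp34 was at 267 and 423 FPKM against 133 and 185 (1.1 ± 0.32, adjusted p = 0.17), Usp16 at 200 and 287 against 145 and 80.6 (1.14 ± 0.37, adjusted p = 0.211), and Ube2w at 24.2 and 38 against 11.6 and 13.1 (1.23 ± 0.34, adjusted p = 0.127). Without replicate 1 of 4-cell Ago2 kd the log2 differences were -1.06 for Usp1, 1.43 for Usp34, 1.4 for Usp16 and 1.55 for Ube2w. Ube2w and Usp34 are genes that fell between the control stages, and both Ago2 kd libraries lay above both 4-cell control libraries; these comparisons share the 4-cell control libraries. The sum of the oocyte markers was also higher in 4-cell Ago2 kd, at 205 to 344 FPKM, than in 4-cell control, and so was that of the 2-cell markers, at 25.1 to 28.9 FPKM against 2.47 to 7.21. The part of either list in these values, and in those of Ube2g2 and Usp49, was not tested.

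Without replicate 1 of 4-cell Ago2 kd, Usp9x joined the calls as higher in Ago2 kd (log2 difference 3.0 ± 0.46, limma, adjusted p = 0.0257). It was at 9.84 FPKM in replicate 2 and at 0.311 in replicate 1, against 0.203 and 0.533 in control, so the value rests on 1 library. Usp2 stayed at 0.173 and 0.202 FPKM, against 0.257 and 0. Ube2c was at 386 and 992 FPKM against 427 and 347 (0.68 ± 0.78, adjusted p = 0.799).

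**Figure D5:**
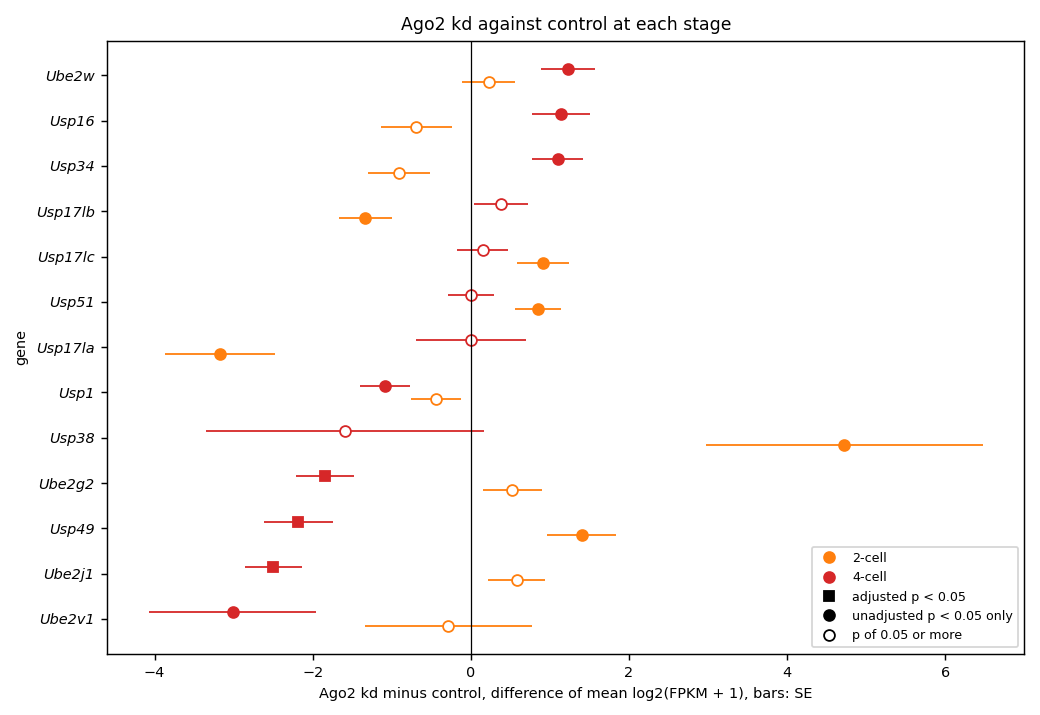
Difference of mean log2(FPKM + 1), Ago2 kd minus control, with SE bars, at the 2-cell (orange) and 4-cell (red) stage for the 13 genes with an unadjusted p below 0.05 at either stage; squares passed adjustment and open circles had p of 0.05 or more. Ube2j1, Usp49 and Ube2g2 are the squares, all at the 4-cell stage and below 0.

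The effects at the 2 stages were also compared directly. The interaction passed adjustment for 2 of the 52 genes, Usp49 and Ube2j1, against 2.25% of all genes tested. Only Usp49 had an unadjusted p below 0.05 at both stages, with a higher level in Ago2 kd at the 2-cell stage and a lower one at the 4-cell stage. For Ube2g2 the interaction was -2.37 ± 0.52 (limma, adjusted p = 0.0868).

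Of 51 other genes of the pathway in the table (ubiquitin precursors, E1 enzymes, other E2 genes, deubiquitinases of other families and cofactors of Usp proteins), 35 were tested. From oocyte to 2-cell control none rose and 5 fell, from 2-cell to 4-cell control 8 rose and 6 fell, and over the whole span 8 rose and 11 fell. Of all genes tested, 6.54% rose and 14.2% fell in the first step, 21.1% and 17.4% in the second, and 22.0% and 26.3% over the whole span. The median changes were -0.69, 0.86 and -0.09 log2 units. Uba3 and Nae1, which together form the E1 of NEDD8, both fell: Uba3 from 26.7 and 50.9 FPKM to 0.0394 and 0.0575 in 2-cell control (limma, adjusted p = 0.00979), and Nae1 from 252 and 182 FPKM in oocytes to 0.0865 and 0.0886 in 4-cell control (adjusted p = 0.0087). Atg3, the E2 of autophagy, fell from 37.6 and 46.6 FPKM to 3.85 and 4.58 (adjusted p = 0.00127) and returned to 92.3 and 82.6 in 4-cell control. The deubiquitinases Uchl1 and Otub2 fell to under 0.3 FPKM in 4-cell control, from 43.4 and 32.3 FPKM in oocytes (adjusted p = 0.0163) and from 28.1 and 20.9 FPKM in 2-cell control (adjusted p = 0.000164).

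Sae1, a subunit of the SUMO E1, was listed at 0 in every library except the 4-cell control ones, at 116 and 102 FPKM. It stands in a section in which the 2-cell libraries are at 0 in every row. At the 2-cell stage none of the 35 passed adjustment between Ago2 kd and control, and before adjustment p was below 0.05 for 1 that was higher and 2 that were lower (limma), where all genes gave 2.87% and 2.9%. At the 4-cell stage 3 were lower and none higher (limma), against 2.76% and 1.15% of all genes. Those lower included Otud3, which the Ago2 kd libraries list at 0, against 6.38 and 7.62 FPKM in control (limma, adjusted p = 0.00115). Sae1 was also among them (limma, adjusted p = 0.000229). However, Sae1 passed the filter only through the 4-cell control libraries, where it is high, so its call was in part set by the filter and is no support for a lower level.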

How the data were processed

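RNA-seq was performed by the authors on 10 libraries, 2 in each of 5 groups taken from the labels. Reads were aligned to GRCm38 (mm10) with HISAT2 2.1.0 and the deposited FPKM values, 1 per gene name and library, were made by the authors with StringTie; per the labels CASAVA 1.4 called the bases. Counts were not used here, so depth and counting error are unknown, and the 2 replicates limit the precision.

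Values were analysed as log2(FPKM + 1) in R 4.3.3 with limma 3.58.1: 1 mean per group, all 10 libraries, 5 residual degrees of freedom, trended empirical Bayes, two-sided, for the 8722 genes that reached 1 FPKM in 2 or more libraries, with Benjamini-Hochberg adjustment over all of them. The change is understated for genes near 0. A gene that passed the filter only with the libraries of 1 group is high there by selection. An exact permutation test of 2 against 2 libraries cannot go below p = 0.333. Rows with equal values in both 2-cell Ago2 kd libraries entered once, a test fitted on fewer samples. Coordinates and coding sequences are from GENCODE M21, promoter windows from RefSeq. The members, gene lists and tests were chosen with earlier results of these data known. Named genes are, per comparison, up to 6 largest rises and 6 largest falls among calls without overlap of the libraries (where fewer than 3 were called, up to 4 with an unadjusted p below 0.05), the most abundant genes, 12 genes picked by role, 4 pairs of related genes, and up to 2 other pathway genes in each direction. Genes named outside this rule were chosen after their values were seen. The method was tested on simulated data. Alternatives changed the pseudocount, filter, scaling, block, fold minimum, groups in the fit, the equal rows and each library. Some genes that the rule names are not reported here.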

Additional observations from a re-analysis of the deposited data

Results flagged for a closer look

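The effect of Ago2 kd differed between the stages for 2 of the 52 genes tested (limma, interaction over all genes). For Usp49 the effect at the 4-cell stage minus that at the 2-cell stage was -3.59 ± 0.62 log2 units (adjusted p = 0.0367), with 2-cell values of 3.47 and 1.77 FPKM in Ago2 kd against 0.778 and 0 in control, and 4-cell values of 0.821 and 0.409 against 6.34 and 6.21. For Ube2j1 the difference was -3.08 ± 0.51 (adjusted p = 0.0327). Ube2j1 was listed at 0 in both 2-cell control libraries and replicate 1 of 2-cell Ago2 kd, as is every row of its section of the table, and was at 1.23 FPKM in replicate 2. It passed the filter only with the 4-cell control libraries, where it is high. Both calls were lost without either oocyte library or either 4-cell control library and under each change of scaling. That of Usp49 was also lost without replicate 2 of 2-cell control, replicate 1 of 2-cell Ago2 kd or replicate 1 of 4-cell Ago2 kd. Among the fits without 1 library, Ube2j1 kept its call only where a 2-cell Ago2 kd library was left out.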

How the results depend on the processing

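Of the 48 named changes, none turned its direction under any alternative and 23 kept their call under all of them. For the Ago2 kd changes named at the unadjusted threshold, that threshold is the call meant here. The 23 thus include Usp17lb at the 2-cell stage and Ube2w at the 4-cell stage, which did not pass adjustment. The 9 falls from oocyte to 2-cell control became 2 with libraries scaled to the same total, 5 with the same median, 4 after quantile normalization and 5 to 9 when 1 library was left out. The 6 rises from 2-cell to 4-cell control ranged from 5 to 10 without 1 library; the highest count came without either 4-cell Ago2 kd library. At the 2-cell stage, the 0 genes lower in Ago2 kd became 0 to 2 without 1 library. At the 4-cell stage the 0 genes higher became 1 without the filter on low values and 0 to 1 without 1 library. The 3 genes lower became 1 with a pseudocount of 0.1, without the filter, with the same median, after quantile normalization, and in each of the 10 fits without 1 library, and 0 in a fit of the groups compared only. The 2 interactions became 0 with a pseudocount of 0.1, without the filter, under all 3 scalings and with only the groups compared, and ranged from 0 to 3 without 1 library. The replicate numbers did not pair the samples (correlations of deviations from -0.0923 to 0.0926 in 10 pairs of groups, none over 0.1). With the replicate number as a block, the 3 genes lower at the 4-cell stage became 1 and the 2 interactions 0, and no other count moved by over 1.5 times. Keeping the equal 2-cell Ago2 kd values as 2 replicates, chosen after seeing the data, or requiring a change of 1 log2 unit moved no count. Depth is unknown, so a value near 0 is not shown to be absent.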
